A study of Homo sapiens with 16 samples.

Results

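The 9 genes described here carry peptides to the cell surface on MHC class I molecules. They are the heavy chain genes HLA-B, HLA-C, HLA-E and HLA-F, the light chain gene B2M, the peptide transporter genes TAP1 and TAP2, and the immunoproteasome genes PSMB8 and PSMB9. They were chosen by name and matched by Ensembl identifier, and all 9 of 9 were found among the 60448 identifiers of the expression table. Each had a mean above 0.5 FPKM (fragments scaled to gene length and to library total), so all 9 were among the 17198 genes tested.

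The study sequenced RNA of human lung adenocarcinoma cells in 16 libraries, which fall into 8 groups of 2. The groups were A549/cDDP with a gapmer to SCAT7, a long noncoding RNA, in cisplatin and in solvent, A549/cDDP with a control gapmer in cisplatin and in solvent, untransfected A549/cDDP in cisplatin and in solvent, and untransfected A549 in cisplatin and in solvent. A549 is an established line, and A549/cDDP is its cisplatin-resistant derivative, kept between experiments in medium that also held cisplatin. Cisplatin crosslinks DNA, and a gapmer is a short antisense strand through which RNase H cuts the RNA it pairs with. The labels' protocols give 35000 seeded cells in each well. Drug (a labelled 15 mM, a unit not checked here) or solvent was given for 24 h, and transfected cells received 12 pmol of gapmer by lipofection and were collected 48 h after it. Every transfected group is A549/cDDP, 1 resistant line stands for resistance, and the labels do not describe the control gapmer further. Since no label tells whether a pair of replicates came from separate cultures, the p-values speak of the spread among these libraries alone, which may be technical.

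MHC class I molecules show the inside of a cell to CD8 T cells. Proteasomes cut proteins into peptides, the TAP transporter moves them into the endoplasmic reticulum, and there they are loaded on a heavy chain paired with beta-2 microglobulin. Interferons raise the whole set through transcription factors such as IRF1 and the coactivator NLRC5, and replace the catalytic subunits of the constitutive proteasome by those of the immunoproteasome. In lung cancer, loss of parts of this route is a known way for tumour cells to become less visible to T cells.

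Depth was recovered only approximately from the low FPKM values, and came to 31270000 to 43080000 fragments per library. It was lower in the 4 SCAT7 gapmer libraries (31270000 to 33400000) than in the 4 control gapmer libraries (42200000 to 43080000). Correlations of log2(FPKM + 0.5) between replicates, across genes, were 0.991 to 0.996. The RNA of SCAT7, listed as ELF3-AS1, fell with its gapmer to 0.716 ± 0.171 FPKM, against 3.06 ± 0.716 with the control gapmer, in solvent (SD, n = 2 libraries each, limma adjusted p = 7.5e-06). Keratin 8 (KRT8, 1547 to 2782 FPKM) marked all libraries as epithelial, while the B cell marker MS4A1 was at 0 in all 16. Among other immune markers, the T cell marker CD3E, PTPRC and LYZ reached at most 0.180 FPKM, the macrophage marker CD68 0.958 and the monocyte marker CD14 2.11. The epithelial marker EPCAM was low, at 0.584 to 3.81 FPKM, and CDH1 had 2.02 to 14.5. Of 5 endothelial and fibroblast markers, the collagen gene COL1A1 was present in every library, at 7.20 to 52.7 FPKM. The others of these, PECAM1, CDH5, COL1A2 and PDGFRB, reached at most 0.349.

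Every gene of the set had its lowest group mean in A549 in solvent and its highest in A549/cDDP with the SCAT7 gapmer. That highest group was in cisplatin for HLA-B, PSMB8 and PSMB9 and in solvent for the others, and both media overlapped for every gene. The span from the lowest to the highest group of a gene, as a ratio of mean FPKM, was 49.8-fold for HLA-B, 22.7-fold for HLA-F, 12.4-fold for HLA-C and 11.8-fold for PSMB9. It was 9.80-fold for TAP1, 7.54-fold for PSMB8, 5.82-fold for HLA-E, 5.45-fold for B2M and 4.97-fold for TAP2. The genes thus shared the lower end of the order, and at the upper end the SCAT7 gapmer but not the medium. They differed in how far they moved. In A549 in solvent, HLA-B started at 7.70 and 6.52 FPKM and HLA-F at 3.57 and 2.69. A low start did not always come with a wide span. TAP2 started at 4.67 and 4.89 FPKM there and had the narrowest span.

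**Figure D1:**
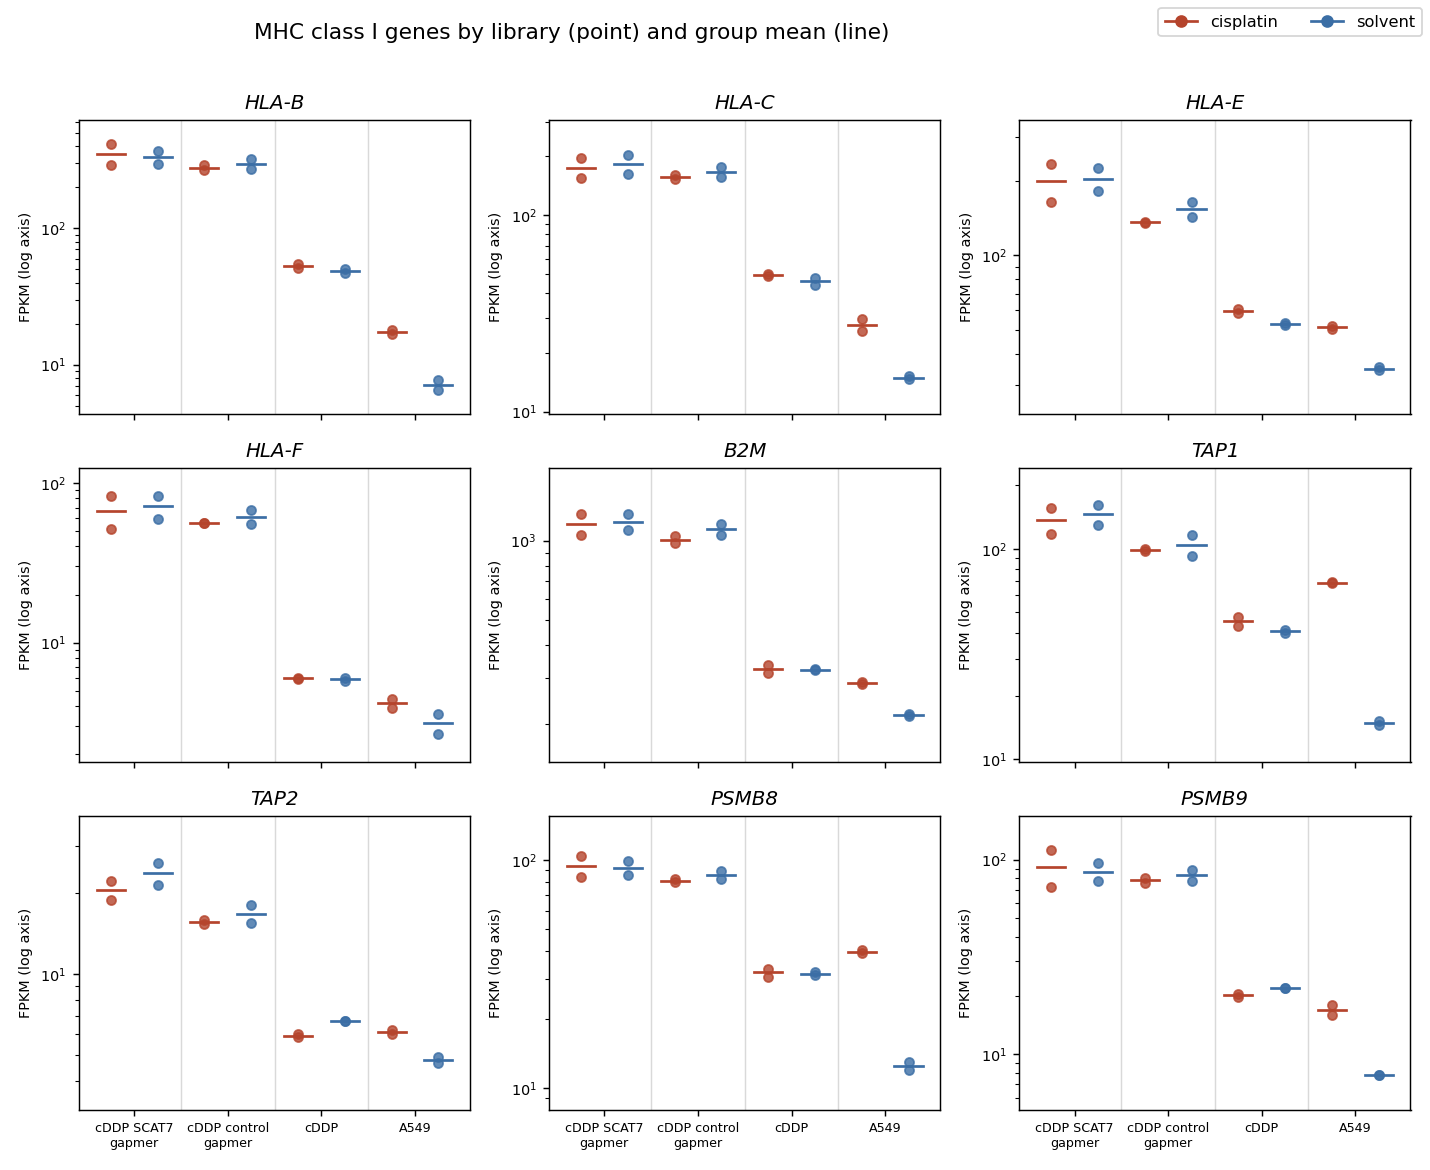
FPKM of the 9 genes on log axes, with 1 point per library, a line at each group mean, cisplatin in red and solvent in blue, and groups along the x axis. HLA-B lies between 6.52 and 416 FPKM over the 16 libraries, B2M between 215 and 1263, and for every gene the 8 gapmer libraries lie above the 8 untransfected ones.

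The order of the 4 gapmer groups was mostly not resolved. Along the order of the 8 group means, neighbouring groups overlapped in 3 of 7 places for HLA-B, HLA-C, B2M, TAP2, PSMB8 and PSMB9, in 4 for HLA-F, in 2 for TAP1 and in 1 for HLA-E. HLA-B libraries did not overlap at any step among the untransfected groups, with means of 53.1 ± 2.98 FPKM in A549/cDDP in cisplatin, 48.8 ± 2.34 in A549/cDDP in solvent, 17.4 ± 0.938 in A549 in cisplatin and 7.11 ± 0.837 in A549 in solvent (SD, n = 2 libraries each). The step within A549/cDDP was narrow, 50.95 FPKM in cisplatin against 50.48 in solvent at the nearest, and did not pass (log2 change 0.12, limma adjusted p = 0.709). How often 2 libraries lie apart from 2 others over all genes was not counted. The HLA-B libraries overlapped from one gapmer group to the next. TAP1 and PSMB8 had another order, since A549 in cisplatin stood above both untransfected A549/cDDP groups for these genes. TAP1 averaged 45.3 ± 2.98 FPKM in A549/cDDP in cisplatin and 40.5 ± 1.05 in A549/cDDP in solvent, against 68.9 ± 0.387 in A549 in cisplatin. Across the 8 group means of log2(FPKM + 0.5), the 36 pairs of these genes had Pearson correlations of 0.861 to 0.998 with a median of 0.967, a description of 8 points that share their libraries.

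All but B2M lie in the MHC region of chromosome 6. On hg38 (GENCODE 29), HLA-F (ENSG00000204642) spans 29722775 to 29738528 on the plus strand, HLA-E (ENSG00000204592) 30489467 to 30494205 on the plus strand, and HLA-C (ENSG00000204525) 31268749 to 31272130 on the minus strand. The annotated span of HLA-B (ENSG00000234745), 31269491 to 31357188 on the minus strand, reaches into that of HLA-C, with 35 bp of shared exon. TAP2 (ENSG00000204267), PSMB8 (ENSG00000204264), PSMB9 (ENSG00000240065) and TAP1 (ENSG00000168394) lie side by side between 32821833 and 32859585. B2M (ENSG00000166710) spans 44711487 to 44718877 on the plus strand of chromosome 15.

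Reads of some of these genes cannot be fully assigned. Whether counting used strand is not given in the sources used here, and the noncoding gene PSMB8-AS1 overlaps PSMB8 on the other strand over 20.6% of the exon bases of PSMB8. Genes on the other strand also overlap HLA-B (AL671883.2, 17.8% of its exon bases) and TAP1 (PSMB8-AS1, 9.49%). HLA-F is overlapped there by AL645939.1 (16.1%), HLA-F-AS1 (12.3%) and RPL23AP1 (5.92%). TAP2 shares 32.3% of its exon bases with the annotated gene AL669918.1 on the same strand, so its level is uncertain. The 50-base stretches of the transcripts were compared in the direction of each transcript only. Of these, 5.38% of those of HLA-C, 4.34% of HLA-E, 2.72% of HLA-B and 0 of B2M and PSMB8 also occur in another gene. Overlaps with genes on the other strand, such as that of PSMB8, are not counted in these shares. The classical heavy chain genes also vary between people, and how many reads of the A549 alleles failed to align to the reference was not tested. Approximate read numbers behind the levels ran from 411 to 12653 for HLA-F, from 699 to 42481 for HLA-B and from 45934 to 303615 for B2M.

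Because these genes moved together, the stretch before their transcription starts is shown for 4 of them. HLA-F had the largest log2 change with the control gapmer. HLA-B had the largest difference between lines in solvent, and TAP1 the largest change with cisplatin in A549. B2M is shown too, though its change of 1.77 with the control gapmer in solvent was the median of the 9 genes. PSMB9 (1.90) and HLA-C (1.85) changed more there and are not shown, so the 4 do not stand for the most changed genes. The sequences are RefSeq's 250 bases before the start on GRCh38.p14, read 5′ to 3′ on the strand of the gene, at chr6:31357180-31357429 (minus) for HLA-B, chr6:29723184-29723433 (plus) for HLA-F, chr15:44711267-44711516 (plus) for B2M and chr6:32853705-32853954 (minus) for the upstream start of TAP1. Capitals mark matches to the interferon-stimulated response element, searched as GAAA, 2 bases of any kind and GAAA, and to the kappa B motif, both on either strand.
HLA-B: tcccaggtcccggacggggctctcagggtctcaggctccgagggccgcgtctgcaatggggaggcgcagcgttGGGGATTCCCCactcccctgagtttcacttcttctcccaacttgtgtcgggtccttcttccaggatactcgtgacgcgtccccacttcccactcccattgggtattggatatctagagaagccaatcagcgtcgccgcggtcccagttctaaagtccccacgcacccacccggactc
HLA-F: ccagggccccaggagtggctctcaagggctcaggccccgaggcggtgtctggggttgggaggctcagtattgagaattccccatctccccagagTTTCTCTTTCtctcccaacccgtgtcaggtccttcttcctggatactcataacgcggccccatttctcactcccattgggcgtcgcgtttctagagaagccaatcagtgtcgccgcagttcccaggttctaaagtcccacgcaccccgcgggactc
B2M: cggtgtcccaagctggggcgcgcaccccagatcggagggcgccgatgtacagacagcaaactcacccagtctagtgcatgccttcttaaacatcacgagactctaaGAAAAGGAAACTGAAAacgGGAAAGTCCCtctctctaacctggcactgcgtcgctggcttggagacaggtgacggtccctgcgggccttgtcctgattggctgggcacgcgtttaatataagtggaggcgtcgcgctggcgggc
TAP1: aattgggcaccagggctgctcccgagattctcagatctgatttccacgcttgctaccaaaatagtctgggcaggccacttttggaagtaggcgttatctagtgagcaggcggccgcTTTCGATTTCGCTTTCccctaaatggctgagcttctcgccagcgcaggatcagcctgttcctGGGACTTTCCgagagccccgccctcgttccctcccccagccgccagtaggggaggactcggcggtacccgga

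Of the 9 genes, 8 had a promoter in the table. The response element matched in B2M (first bases at positions -144 and -138, with the base before the start as -1), HLA-F (-156), TAP1 (-134 and -128) and TAP2 (-58), and among all 35116 promoters of this length 3.02% held it. The paired matches in B2M and in TAP1 overlap each other by 4 bases. The kappa B motif matched in HLA-B (-177 and -176, overlapping), HLA-C (-172), B2M (-125) and TAP1 (-72), against 5.21% of all promoters. The gamma interferon activated site, searched as TTCNNNGAA, matched in PSMB8 (-65) and before the other start of TAP1 (-189), against 6.57%. The upstream start of TAP1 lies 487 bases from that of PSMB9, which is read in the opposite direction, and the PSMB9 window held no match to these 3 motifs. A match is a string of letters and shows no binding.

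Cisplatin in the parental line raised 8 of the 9 genes, by 1.27-fold for TAP2 to 4.64-fold for TAP1. The test was limma on log2(FPKM + 0.5) across all 17198 genes with Benjamini-Hochberg adjustment and a threshold of 0.05, and a gene is said to have risen or fallen, or to be higher or lower, where it passed that threshold. In this comparison 33.3% of all genes tested were higher and 27.1% lower, so a call on its own is common here. The genes' median log2 change was 0.87, against 0.06 over all genes.

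TAP1 and PSMB8 had the largest changes, and TAP2 the smallest of the 9. TAP1, which forms the peptide transporter with TAP2, had 69.2 and 68.6 FPKM in A549 in cisplatin, against 15.1 and 14.6 in A549 in solvent. Both cisplatin libraries lay far above both solvent libraries, and the log2 change was 2.18 (95% interval 1.89 to 2.46, limma adjusted p = 2.11e-08). TAP2, its partner in the transporter, had 6.19 and 5.96 FPKM in A549 in cisplatin, against 4.67 and 4.89 in A549 in solvent. Its libraries did not overlap either, but the log2 change of 0.32 (limma adjusted p = 0.012) ended as a call with quantile normalization (adjusted p = 0.103) and without replicate 1 of A549 in solvent (0.0668) or in cisplatin (0.0634). TAP1 and TAP2 are needed in equal parts for a transporter, and the ratio of their FPKM was 11.2 and 11.52 in A549 in cisplatin, against 3.24 and 2.98 in A549 in solvent.

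PSMB8, a catalytic subunit of the immunoproteasome, had 39.0 and 40.2 FPKM in A549 in cisplatin, against 13.0 and 12.0 in A549 in solvent. The groups did not overlap, and PSMB8 rose by 1.63 in log2 units (limma adjusted p = 8.43e-09). PSMB9, another of its catalytic subunits, averaged 16.9 ± 1.36 FPKM in A549 in cisplatin and 7.82 ± 0.0497 in A549 in solvent (SD, n = 2 libraries each), and rose by 1.07 (limma adjusted p = 7.09e-05). The third catalytic subunit, PSMB10, rose by 1.35 (limma adjusted p = 1.63e-06). Of 14 genes of the constitutive proteasome, 3 rose and 1 fell, with a median log2 change of 0.07. PSMA6 had the largest change among these, 1.09.

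Of the heavy chain genes, 3 of 4 rose. HLA-B, a classical heavy chain, had 16.7 and 18.05 FPKM in A549 in cisplatin, against 7.70 and 6.52 in A549 in solvent, and rose by 1.24 (limma adjusted p = 1.34e-05). HLA-C, the other classical heavy chain of the set, averaged 27.7 ± 2.89 FPKM in A549 in cisplatin and 14.9 ± 0.382 in A549 in solvent, and rose by 0.87 (limma adjusted p = 3.22e-05). HLA-E, which presents leader peptides of other class I chains to receptors of NK cells, rose by 0.55 (limma adjusted p = 0.00324). HLA-F, a nonclassical chain, had 3.92 and 4.46 FPKM in A549 in cisplatin, against 3.57 and 2.69 in A549 in solvent. Its libraries did not overlap, but its change of 0.38 did not pass (95% interval -0.06 to 0.81, limma adjusted p = 0.123), and it passed when either SCAT7 gapmer library in cisplatin was left out of the shared estimate of spread (adjusted p = 0.0437). B2M, the light chain that all heavy chains need, averaged 287 ± 2.29 FPKM in A549 in cisplatin and 216 ± 1.99 in A549 in solvent, and rose by 0.41 (limma adjusted p = 0.00112).

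Among 12 other peptide loading genes, of which 11 were tested, 7 rose and 3 fell. ERAP2 (1.75), a peptidase that trims peptides in the endoplasmic reticulum, PSMB10 and TAPBPL (1.12), which edits the peptides loaded, had the largest rises. TAPBP, the tapasin gene, rose by 0.40 and the trimming peptidase gene ERAP1 by 0.34. The 3 that fell were the general chaperone genes CALR, CANX and PDIA3. The regulators split: of 22, 12 rose and 4 fell, led by IRF1 (1.84), a transcription factor of class I and immunoproteasome genes, SOCS1 (1.61), a feedback inhibitor of cytokine signalling, and RFX5 (1.18), which binds class I promoters. NLRC5 had 2.93 and 2.98 FPKM in A549 in cisplatin, against 3.21 and 4.10 in A549 in solvent (log2 change -0.26, limma adjusted p = 0.34). NLRC5 thus did not pass in A549. Of 20 interferon-stimulated genes, 13 rose and 1 fell, with a median of 0.66; ISG15 (2.68), a ubiquitin-like modifier, IFIT3 (1.70) and IFI6 (1.41) had the largest changes.

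Genes next to the class I route moved too. MR1, a class I-like molecule that presents vitamin metabolites, had 24.4 and 24.2 FPKM in A549 in cisplatin, against 2.19 and 2.15 in A549 in solvent, and rose by 3.21 (limma adjusted p = 2.35e-13). SUSD6, reported to promote the removal of class I molecules from the surface, had 49.0 and 48.9 FPKM in A549 in cisplatin, against 6.77 and 5.90 in A549 in solvent. It rose by 2.86 (limma adjusted p = 4.11e-12), more than any of the 9 genes. Among 5 genes of class I surface turnover, SUSD6 and TMEM127 (0.58) rose and 2 fell, WWP2 (-0.51) among them. FCGRT, the neonatal Fc receptor, which also pairs with B2M, rose by 0.997, and HFE, an iron-regulating class I-like molecule, fell by 0.82. Of 10 MHC class II genes, 2 were high enough to be tested. HLA-DMA, which helps to load class II molecules and had 1.58 to 5.76 FPKM over the 16 libraries, rose by 0.997 with cisplatin in A549 (limma adjusted p = 3.62e-06). CD74, the class II invariant chain, had 0.345 to 4.43 FPKM and did not pass there. HLA-DMB reached at most 1.96 FPKM and HLA-DPA1 0.490, while CIITA, the master regulator of class II, reached 0.328 and HLA-DRA 0.104.

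In the resistant line no gene of the set passed with cisplatin. Of the 9, 0 were called by limma, 0 had an unadjusted p under 0.05, and 8.1% of all genes tested were called. The log2 changes lay between -0.16 for TAP2 and 0.17 for HLA-E, and the widest 95% interval, for HLA-F, reached from -0.42 to 0.45. TAP1 had 43.2 and 47.4 FPKM in A549/cDDP in cisplatin, against 41.2 and 39.8 in A549/cDDP in solvent. PSMB8 had 33.4 and 30.8 FPKM in A549/cDDP in cisplatin, against 31.4 and 32.1 in A549/cDDP in solvent. HLA-B had 55.2 and 51.0 FPKM in A549/cDDP in cisplatin, against 47.2 and 50.5 in A549/cDDP in solvent. The intervals leave room for changes of PSMB8 of -0.18 to 0.21 and of TAP1 of -0.13 to 0.45, short of the changes measured in A549. Of the 20 interferon-stimulated genes and of the 11 other loading genes tested, PSMB10, TAPBP and ERAP1 among them, 0 passed. Other lists did hold calls in A549/cDDP. MR1 rose by 0.21 (limma adjusted p = 0.0182) and SUSD6 by 0.28 (0.0211). MARCHF4 (0.39) and TMEM127 (0.20) rose too, so that 3 of 5 genes of class I surface turnover rose. Over all genes tested, 611 of 17198 were higher. Of 22 regulators, RELA (0.19) and IFNGR2 (0.22) rose and IFNGR1 fell by 0.21 on the log2 scale, while IRF1 (-0.09) and NLRC5 (0.15) did not pass.

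The difference between both cisplatin effects was tested directly, and 7 of the 9 genes had a lower effect in A549/cDDP than in A549, where 25.6% of all genes tested did. The difference in log2 change was -2.02 for TAP1 (limma adjusted p = 2.33e-06), -1.61 for PSMB8 (5.56e-07), -1.18 for PSMB9 (0.000784) and -1.12 for HLA-B (0.000879). For HLA-C it was -0.76 (limma adjusted p = 0.00232) and for TAP2 -0.48 (0.0109). B2M differed by -0.39 (limma adjusted p = 0.0165), a call that ended without the filter on low genes (adjusted p = 0.0556), with quantile normalization (0.0671) and without replicate 2 of A549/cDDP in cisplatin (0.0594). HLA-E (-0.37, adjusted p = 0.125) and HLA-F (-0.36, adjusted p = 0.322) did not pass, though HLA-E did when only the 4 groups concerned were fitted (0.000415). IRF1 (-1.93), ISG15 (-2.603) and SUSD6 (-2.58) differed in the same direction, as 8 of 22 regulators and 8 of 20 interferon-stimulated genes did, against 2 and 0 in the other.

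**Figure D2:**
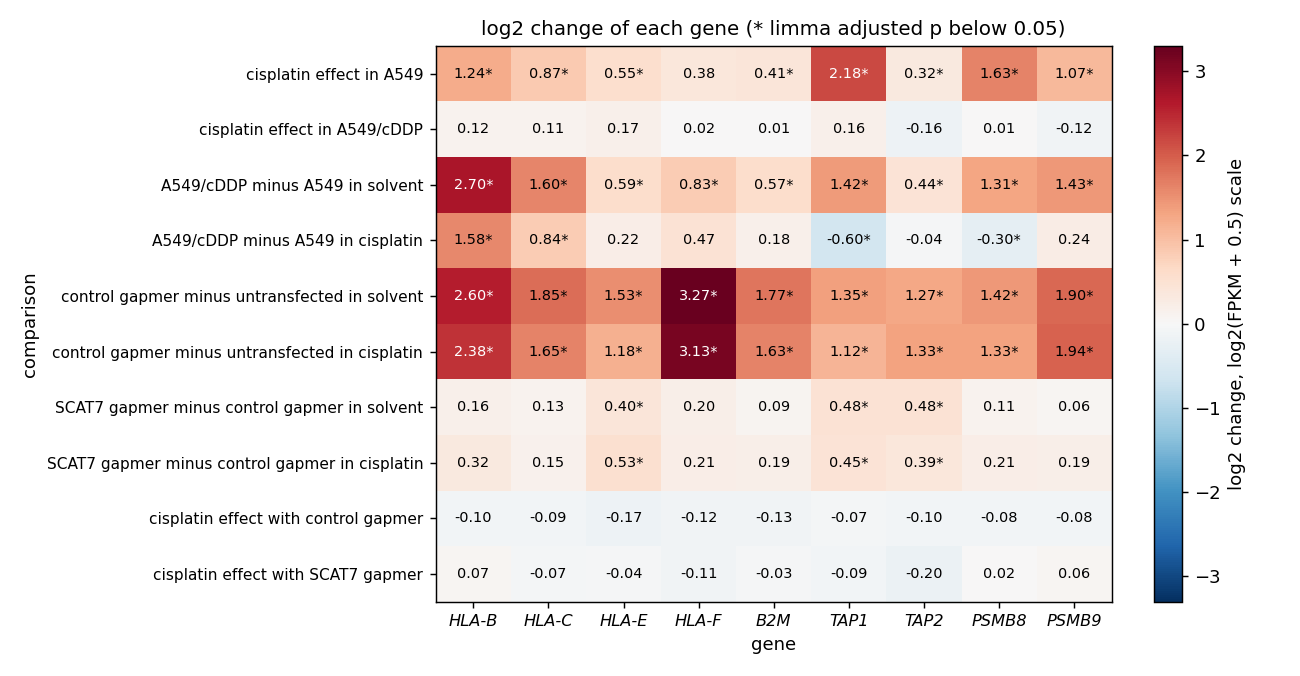
Log2 change of each gene (columns) in 10 comparisons (rows) on the log2(FPKM + 0.5) scale, red for higher and blue for lower, with an asterisk where the limma adjusted p was below 0.05. All 9 genes are marked with the control gapmer and for A549/cDDP in solvent, 8 for cisplatin in A549, and none for cisplatin in any A549/cDDP setting.

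In solvent, all 9 genes were higher in A549/cDDP than in A549, where 42.7% of all genes tested were higher. This comparison uses the same A549 solvent libraries as the cisplatin effect in A549, so both are given side by side and not as separate support. The median log2 difference of the 9 genes was 1.31, against 0.15 over all genes, a shift that median ratio scaling reduced to 0.02. Of all calls, 60.8% were higher as deposited, 49.7% with median ratio scaling and 49.3% with quantile normalization, while all 9 genes were called under each.

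HLA-B differed most, with 47.2 and 50.5 FPKM in A549/cDDP in solvent, against 7.70 and 6.52 in A549 in solvent. That is 6.87-fold, a log2 difference of 2.70 (95% interval 2.37 to 3.03, limma adjusted p = 7.74e-09). HLA-C had 47.7 and 44.4 FPKM in A549/cDDP in solvent, against 15.1 and 14.6 in A549 in solvent (log2 difference 1.60, limma adjusted p = 9.65e-08). PSMB9 (1.43), TAP1 (1.42) and PSMB8 (1.31) followed, then HLA-F (0.83), HLA-E (0.59), B2M (0.57) and TAP2 (0.44, limma adjusted p = 0.00122). BST2 (4.54), IFI44 (4.35) and GBP1 (3.02) led 16 interferon-stimulated genes that were higher, against 2 that were lower. NLRC5 did not pass (0.28, adjusted p = 0.271). IRF1 was higher by 1.06, IFNGR1, a chain of the gamma interferon receptor, by 1.29, and SOCS1 by 1.31. Among the other loading genes 6 were higher and 3 lower, and ERAP2 (1.95), TAPBP (1.16), ERAP1 (0.96) and PSMB10 (0.71) were among the higher ones. MR1 was higher by 2.49 and SUSD6 by 1.56. Of 5 epithelial markers, 4 were lower in A549/cDDP, among them CDH1 (-2.13) and EPCAM (-1.42), and KRT19 was higher by 0.85. Over all genes tested, 4737 of 17198 were lower in A549/cDDP in solvent. The collagen gene COL1A1 was higher by 1.94, the monocyte marker CD14 was lower by 1.62 (limma adjusted p = 8.4e-06), and the summed FPKM of 7 immune markers was 0.295 to 0.482 in A549/cDDP in solvent, against 1.44 to 2.18 in A549 in solvent. The part of these markers in the class I difference was not tested. In bulk RNA, more cells with a transcript and more RNA per cell cannot be told apart.

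In cisplatin the same lines differed in both directions. HLA-B was higher in A549/cDDP, with 55.2 and 51.0 FPKM against 16.7 and 18.05 in A549 (log2 difference 1.58, limma adjusted p = 1.21e-06), and HLA-C was higher by 0.84 (3.9e-05). TAP1 was lower, with 43.2 and 47.4 FPKM in A549/cDDP in cisplatin against 69.2 and 68.6 in A549 in cisplatin (log2 difference -0.60, limma adjusted p = 0.00143). PSMB8 was lower by 0.30 on the log2 scale, at 33.4 and 30.8 FPKM in A549/cDDP in cisplatin against 39.0 and 40.2 in A549 in cisplatin (limma adjusted p = 0.00985). That call ended without replicate 2 of either group (adjusted p = 0.0531 for A549 and 0.0779 for A549/cDDP). The other 5 genes lay between -0.04 and 0.47 and did not pass. Of these, HLA-E, HLA-F, B2M and PSMB9 passed as higher in A549/cDDP when only these groups were fitted (adjusted p of 0.00459 to 0.0235) and when either SCAT7 gapmer library in cisplatin was left out of the shared estimate of spread (0.0147 to 0.0372), which brought the count to 8 of 9. Over all genes 37% were higher and 29.5% lower. IRF1 and PSMB10 were also lower in A549/cDDP, by 0.86 and 0.72 on the log2 scale, while TAPBP (0.83), NLRC5 (0.69) and ERAP1 (0.60) were higher. MR1 and SUSD6 were lower in A549/cDDP, by 0.51 and 1.02 on the log2 scale.

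By the median of the 9 genes, the control gapmer against no transfection gave the largest change of these comparisons. Gene by gene this did not hold, since TAP1 and PSMB8 changed more with cisplatin in A549 and HLA-B differed more between the lines in solvent. All 9 genes were higher with the control gapmer than in untransfected A549/cDDP in solvent, where 20.7% of all genes tested were higher. All 9 were higher in cisplatin too, where 23% were. The median log2 change was 1.77 in solvent and 1.63 in cisplatin, against -0.01 and 0.02 over all genes. Of all calls in cisplatin, 54.3% were higher as deposited and 43.9% with quantile normalization. Gapmer, lipofection and the time in culture after it cannot be told apart here, because no group was lipofected without an oligonucleotide.

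HLA-F moved furthest. It had 55.4 and 67.6 FPKM with the control gapmer in solvent, against 5.80 and 6.0004 in untransfected A549/cDDP in solvent. The groups lay far apart at 10.4-fold, a log2 change of 3.27 (95% interval 2.84 to 3.70, limma adjusted p = 1.75e-07). In the line comparison in solvent the same gene had differed by 0.83. HLA-B had 274 and 323 FPKM with the control gapmer in solvent, against 47.2 and 50.5 untransfected, a log2 change of 2.596 (limma adjusted p = 1.12e-07). HLA-C rose by 1.85 and HLA-E by 1.53 (limma adjusted p = 2.31e-07 and 2.79e-06). B2M had 1049 and 1159 FPKM with the control gapmer in solvent, against 324 and 320.1 untransfected, and rose by 1.77 (limma adjusted p = 2.42e-08).

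PSMB9 had 77.4 and 88.9 FPKM with the control gapmer in solvent, against 21.9 and 21.9 untransfected, and rose by 1.90 (limma adjusted p = 1.87e-06). PSMB8 rose by 1.42, TAP1 by 1.35 and TAP2 by 1.27 (limma adjusted p = 2.22e-07, 7.51e-06 and 8.44e-07). TAP2, which rose by 0.32 with cisplatin in A549, had 15.6 and 18.1 FPKM with the control gapmer in solvent, against 6.67 and 6.66 untransfected. In cisplatin the log2 changes of the 9 genes ran from 1.12 (TAP1) to 3.13 (HLA-F), with the same 9 genes called.

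The interferon genes of the lists moved with these genes. All 20 interferon-stimulated genes rose with the control gapmer in solvent, with a median log2 change of 4.03, and 19 of 20 rose in cisplatin, with a median of 3.79. IFI27 had 197 and 254 FPKM with the control gapmer in solvent, against 1.19 and 0.823 untransfected (log2 change 7.23), and OAS2 (6.90) and IFI6 (6.71) followed. Among the 22 regulators, 11 rose and 2 fell, among them NLRC5, which rose by 2.44 (limma adjusted p = 4.07e-06), and STAT2, a transcription factor of interferon signalling, which rose by 2.07 (1.2e-06). NLRC5 had 21.9 and 32.8 FPKM with the control gapmer in solvent, against 4.39 and 4.67 untransfected. IRF1 rose by 1.02. Of the 11 other loading genes tested, 9 rose and 0 fell, among them PSMB10 (1.20), TAPBPL (1.02), PSME2 (0.99), a subunit of the proteasome activator, ERAP1 (0.78) and TAPBP (0.71). The constitutive proteasome had a median of 0.14, with 6 of 14 higher. MR1 and SUSD6, which had risen most with cisplatin in A549, fell with the control gapmer, by 0.78 and 0.85 on the log2 scale. CD74 rose by 1.60 and HLA-DMA fell by 0.33, while CIITA stayed at or below 0.328 FPKM. Immune cell markers stayed low, and the summed FPKM of 7 such genes was 0.268 to 0.626 with the control gapmer in solvent, against 0.295 to 0.482 untransfected.

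**Figure D3:**
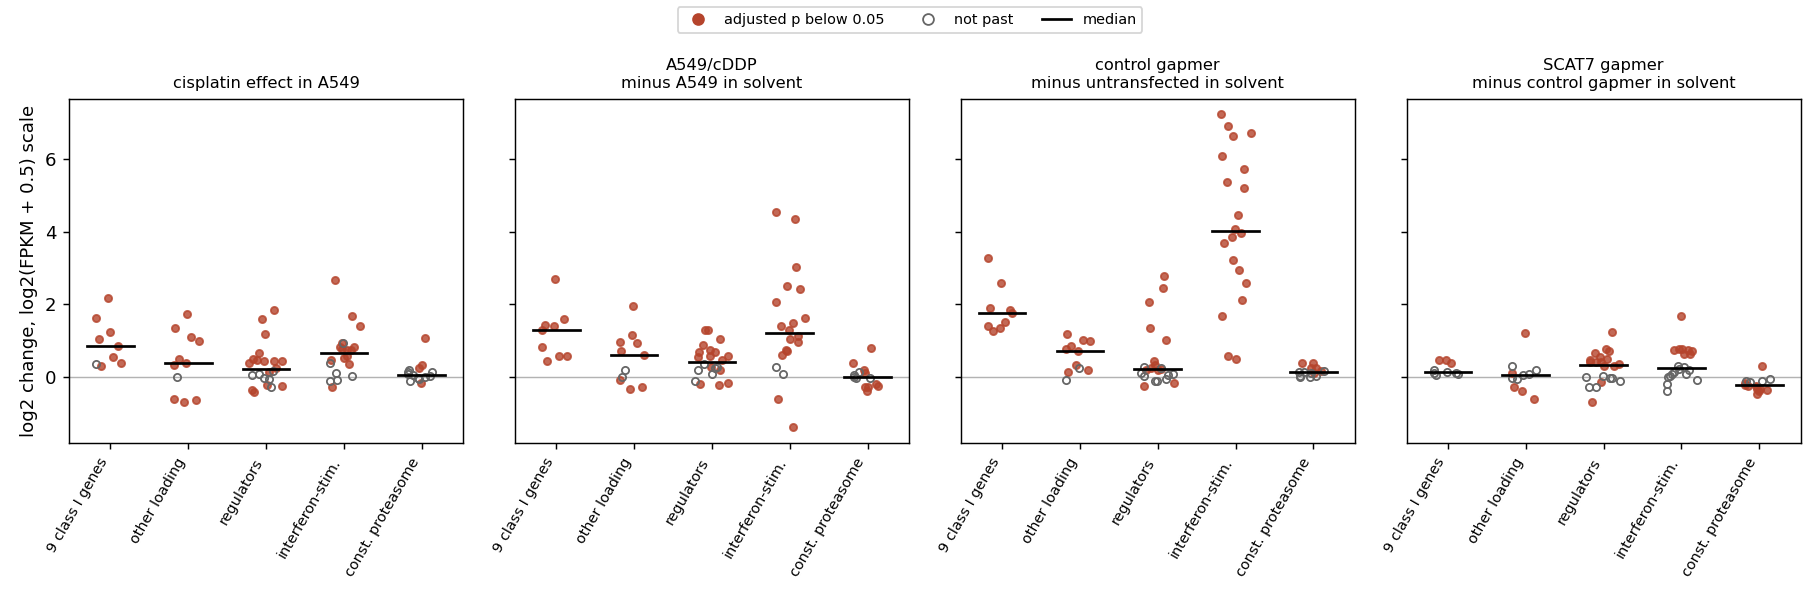
Log2 change of each gene of 5 lists in 4 comparisons, filled where the limma adjusted p was below 0.05, with a line at each list's median. With the control gapmer in solvent the medians are 1.77 for the 9 class I genes, 4.03 for interferon-stimulated genes and 0.14 for the constitutive proteasome.

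With the control gapmer present, cisplatin moved none of the 9 genes past the threshold (0 by limma, 0 at an unadjusted p under 0.05, against 2.53% of all genes called). The log2 changes ran from -0.17 to -0.07. With the SCAT7 gapmer the count was also 0 by limma and 0 at an unadjusted p under 0.05, against 4.18% of all genes, with changes from -0.20 to 0.07. The difference between both effects passed for 0 of 9 genes, 0 at an unadjusted p under 0.05, and for 0.93% of all genes. Its widest 95% interval was that of HLA-F, -0.60 to 0.62. These shares of all genes depend on the shared estimate of spread. With only the groups concerned fitted, 160 of 17198 genes were higher and 110 lower with the control gapmer, and 0 were called with the SCAT7 gapmer. For the difference, 4 were higher and 6 lower. HLA-F had 56.3 and 56.2 FPKM with the control gapmer in cisplatin, against 55.4 and 67.6 with the control gapmer in solvent. HLA-B had 416 and 292 FPKM with the SCAT7 gapmer in cisplatin, against 370.4 and 297 with the SCAT7 gapmer in solvent. The groups overlapped for both genes. Over all genes, 66.2% of calls were higher with the control gapmer (52.6% with median ratio scaling) and 69.8% with the SCAT7 gapmer (57.6% with median ratio scaling).

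With the SCAT7 gapmer in solvent, 3 of 9 genes were higher than with the control gapmer, where 33.2% of all genes tested were higher, and in cisplatin 3 of 9, where 28.6% were. The genes were HLA-E, TAP1 and TAP2 in both media, and 3 of 9 is a share near that over all genes. HLA-E had 225 and 181 FPKM with the SCAT7 gapmer in solvent, against 143 and 164 with the control gapmer (log2 change 0.40, limma adjusted p = 0.0225). TAP1 had 161 and 129.8 FPKM with the SCAT7 gapmer in solvent, against 92.4 and 116 with the control gapmer (0.48, limma adjusted p = 0.00813). TAP2 had 26.0 and 21.6 FPKM with the SCAT7 gapmer in solvent, against 15.6 and 18.1 with the control gapmer (0.48, limma adjusted p = 0.000908). The libraries of these 3 genes did not overlap, but the nearest ones were close.

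The calls of HLA-E and TAP1 in solvent and of TAP1 and TAP2 in cisplatin rest on single libraries. In solvent, without replicate 1 of the SCAT7 gapmer only TAP2 passed, with TAP1 at an adjusted p of 0.0967 and HLA-E at 0.209, and the same held without replicate 1 of the control gapmer (0.1004 and 0.158). HLA-E also missed without the filter on low genes (adjusted p = 0.0647). In cisplatin, HLA-E changed by 0.53, TAP1 by 0.45 and TAP2 by 0.39 (limma adjusted p = 0.00538, 0.0133 and 0.00504). Without replicate 1 of the SCAT7 gapmer in cisplatin 1 gene passed, HLA-E, and without replicate 2 all 9 did. HLA-E missed when only these groups were fitted (adjusted p = 0.0554), and TAP1 missed without replicate 1 of the control gapmer in cisplatin (0.0629).

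The libraries of the SCAT7 gapmer differed from each other in 1 direction over the set. Replicate 1 was above replicate 2 for 9 of 9 genes in solvent, with a median ratio of FPKM of 1.24, and for 9 of 9 in cisplatin, with a median of 1.32. It was above for 20 of 20 interferon-stimulated genes in each medium as well, with medians of 1.28 and 1.36, and for 7 and 8 of 14 constitutive proteasome genes. The control gapmer libraries in solvent differed the other way, with replicate 1 below replicate 2 for 9 of 9 genes (median ratio 0.870) and for 20 of 20 interferon-stimulated genes. In the control gapmer libraries in cisplatin the median ratio was 0.9751. IRF1 was higher with the SCAT7 gapmer in solvent by 1.25, at 138 and 103 FPKM against 45.3 and 54.7 with the control gapmer (limma adjusted p = 2.86e-05), and NLRC5 by 0.72 (0.0147). Of the 22 regulators, 13 were higher and 2 lower in solvent, and 12 were higher and 2 lower in cisplatin. Of the 20 interferon-stimulated genes, 8 were higher and 0 lower in each medium, with IFIT2 higher by 1.69 in solvent and 1.48 in cisplatin. These counts of both lists stand beside 33.2% of all genes tested that were higher in solvent and 28.6% in cisplatin. ERAP2 was higher by 1.22 and HLA-DMA by 1.12 in solvent, while 9 of 14 constitutive proteasome genes were lower and 1 was higher, where 22.7% of all genes tested were lower.

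The make-up of the heavy chain RNA differed between groups. Shares are those of the 4 heavy chain genes described here in their summed FPKM. The gene lengths behind the FPKM are not given in the sources used here. The shares and ratios are therefore read as changes between groups, not as amounts of one gene's RNA against another's. HLA-B made up 43.5% and 44.1% of that sum with the control gapmer in solvent, against 30.7% and 32.9% in untransfected A549/cDDP in solvent. Its share was 17.3% and 17.3% in A549 in cisplatin, against 12.5% and 11.2% in A549 in solvent. HLA-E had the largest share by FPKM in A549 and in untransfected A549/cDDP, and HLA-B had the largest in the gapmer groups. The share of HLA-E was 22.7% and 22.4% with the control gapmer in solvent, against 34.5% and 34.2% in untransfected A549/cDDP in solvent. It was at 52.2% and 49.8% in A549 in cisplatin, against 57.3% and 59.1% in A549 in solvent. The 4 shares sum to the whole, so they do not vary independently. The sum itself was 629.6 and 732 FPKM with the control gapmer in solvent, against 154 and 153 in untransfected A549/cDDP in solvent, and 96.9 and 104 FPKM in A549 in cisplatin, against 61.8 and 58.2 in A549 in solvent. B2M changed less than the sum: the ratio of its FPKM to the heavy chain sum was 1.67 and 1.58 with the control gapmer in solvent, against 2.11 and 2.09 in untransfected A549/cDDP in solvent, and 2.94 and 2.77 in A549 in cisplatin, against 3.52 and 3.70 in A549 in solvent. These ratios are given as descriptions, without a test.

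**Figure D4:**
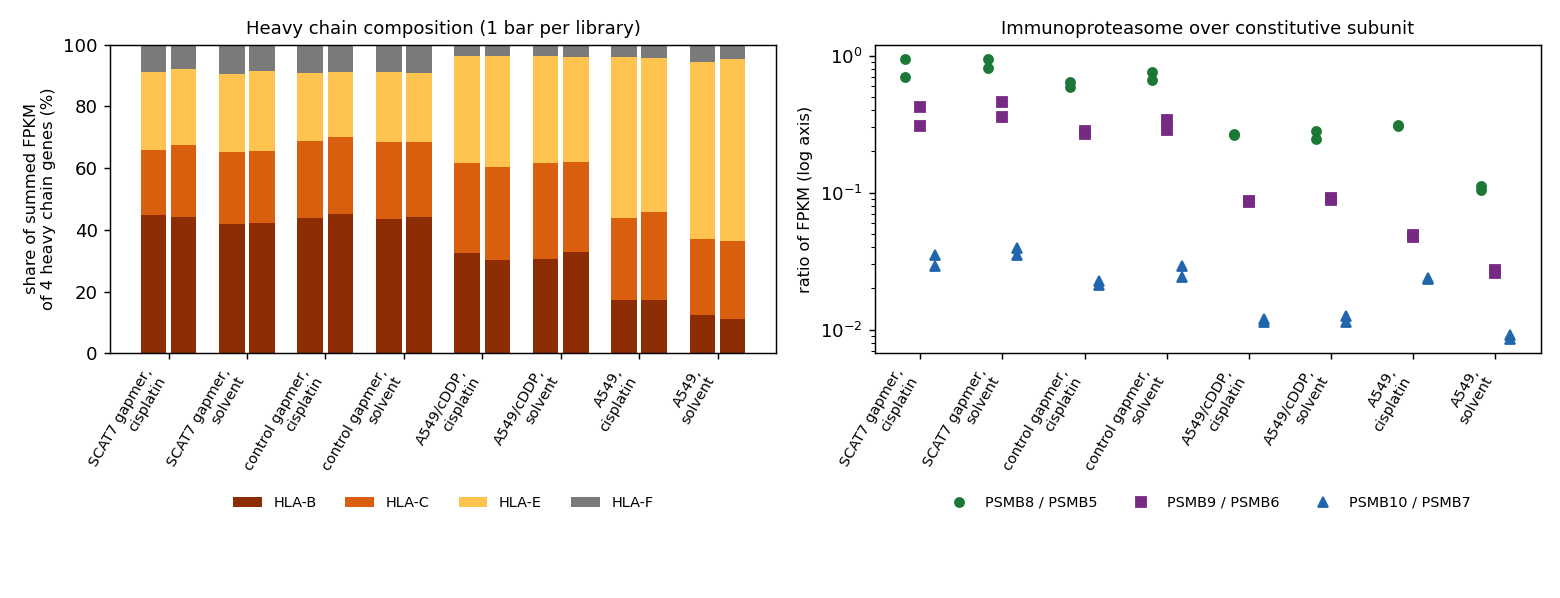
Left, the share in percent of each of 4 heavy chain genes in their summed FPKM, 1 bar per library. Right, FPKM of an immunoproteasome subunit over that of the constitutive subunit it replaces on a log axis, 1 point per library. HLA-B makes up 41.99% or more of the sum in the 8 gapmer libraries and 12.5% or less in A549 in solvent, where PSMB8 over PSMB5 is also lowest, at 0.112 and 0.105.

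The balance of proteasome subunits shifted with them. PSMB8 replaces the constitutive subunit PSMB5, and the ratio of their FPKM was 0.309 and 0.315 in A549 in cisplatin, against 0.112 and 0.105 in A549 in solvent. It was 0.954 and 0.820 with the SCAT7 gapmer in solvent, 0.665 and 0.762 with the control gapmer in solvent and 0.247 and 0.285 in untransfected A549/cDDP in solvent. PSMB9 replaces PSMB6, and their ratio was 0.288 and 0.338 with the control gapmer in solvent, against 0.0913 and 0.0880 in untransfected A549/cDDP in solvent. In A549 it was 0.0471 and 0.0493 in cisplatin, against 0.0257 and 0.0271 in solvent. PSMB10 replaces PSMB7, and their ratio was at most 0.0395 in any library. In FPKM, each constitutive partner was thus above its immunoproteasome subunit in all 16 libraries. The gene lengths behind the FPKM are not given in the sources used here, so this may not hold for RNA amounts.

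Genes outside the set with the most similar pattern were listed by Pearson correlation over the 8 group means, among the 10508 genes that averaged 5 FPKM or more. For HLA-B they were RIGI (0.993), BTG3 (0.993), SP100 (0.992), ERAP1 (0.992) and IFIH1 (0.992). For TAP1 they were IFI16 (0.996), TRANK1 (0.995), APOL2 (0.994), TRIM22 (0.993) and BTN3A1 (0.992). For PSMB9 the highest were UBE2L6 (0.999) and APOL1 (0.998). These values describe 8 points each, 4 of them gapmer groups that lay far above the rest.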

How the data were processed

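The authors deposited FPKM for 60448 Ensembl identifiers in 16 libraries. Reads were aligned with TopHat2 and counted with HTSeq 0.6.1 on the hg38 build, as given in the submitters' processing notes. Which annotation release was used, the strand setting and the FPKM formula are not given in the sources used here. Symbols and positions came from GENCODE release 29, and promoters from RefSeq. From the deposited FPKM, log2(FPKM + 0.5) was fitted with limma 3.58.1 (R 4.3.3, trended prior, 1 mean per group, 8 residual degrees of freedom) for the 17198 genes that averaged 0.5 FPKM or more. Tests were two-sided with Benjamini-Hochberg adjustment over all of them and a threshold of 0.05. The fit was tested on simulated data. Fold changes of low genes are understated by the pseudocount. Depth is approximate, since 58.6% to 73.4% of low values came out as whole reads within 0.02, so no count test was run.

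The 9 genes and all lists were chosen with earlier results of these data known. The text draws on a rule without printing all it names in each comparison. From each list, up to 3 called genes with the largest absolute change and at least 1 FPKM in the higher group could be named in a comparison, besides NLRC5, IRF1, PSMB10, TAPBP, ERAP1 and SUSD6; CALR, CANX, PDIA3, PSMA6 and CD74 were otherwise named after their values were seen. A gene that this rule also named is not reported here. Alternatives were other pseudocounts (0.1 and 1), filters (none, and 2 FPKM), scalings, fits, a replicate block and leaving out each library.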

Additional observations from a re-analysis of the deposited data

Results flagged for a closer look

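For 7 of the 9 genes the effect of cisplatin differed between lines, by limma's test of the difference itself (A549/cDDP minus A549, on the log2 scale, adjusted over all genes). The difference was -2.02 for TAP1, -1.61 for PSMB8, -1.18 for PSMB9 and -1.12 for HLA-B. It was -0.76 for HLA-C, -0.48 for TAP2 and -0.39 for B2M. In A549 these 7 genes rose with cisplatin, and in A549/cDDP none of them passed. No group has 4 libraries, so single libraries were not screened for outlying values.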

How the results depend on the processing

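The counts of called genes were within 1.5 times the reported ones under every alternative except these. For A549/cDDP against A549 in cisplatin, 8 genes passed with only those groups fitted or without either SCAT7 gapmer library in cisplatin, against 4 in the shared fit. Leaving out each library gave 7 to 9 genes for cisplatin in A549, 6 to 8 for the difference of effects between lines, 9 for the lines in solvent and 3 to 8 in cisplatin. It gave 1 to 3 genes for the SCAT7 gapmer against the control gapmer in solvent and 1 to 9 in cisplatin, 9 for the control gapmer in each medium, and 0 for the other 4 comparisons. A lone library left in a group is then assumed to vary like the others. No change reversed its direction past the threshold; of the single gene values under alternatives, 2653 stayed on their side of it, 30 came to pass and 17 no longer did. The cause was not tested.

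Replicate numbers did not pair the libraries (correlations of deviations of -0.187 to 0.119 over 28 pairs of groups, 2 of them over 0.1). With the number as a replicate block, the counts were 8, 0 and 7 for cisplatin in A549, in A549/cDDP and their difference, 9 and 4 for the lines in solvent and cisplatin, 9 and 9 for the control gapmer, 3 and 3 for the SCAT7 gapmer, and 0 for the rest. With 2 libraries per group, small changes such as those of HLA-F and TAP2 lie near what can be detected.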

Other observations

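The genes of the interferons themselves were low, and were looked at after the values were seen. IFNB1, the interferon beta gene, had 2.38 and 1.36 FPKM with the SCAT7 gapmer in solvent and 0.594 and 0.540 with the control gapmer in solvent, against 0.150 and 0.0701 in untransfected A549/cDDP in solvent. It was listed at 0 in all 4 A549 libraries. IFNL1, an interferon lambda gene, had 4.32 and 1.54 FPKM with the SCAT7 gapmer in solvent and 1.57 and 1.65 with the control gapmer in solvent, and was listed at 0 in untransfected A549/cDDP in solvent. CXCL10, a chemokine that draws T cells, had 22.4 and 11.1 FPKM with the SCAT7 gapmer in solvent and 3.96 and 7.46 with the control gapmer in solvent, against 0.0439 and 0.102 in untransfected A549/cDDP in solvent. In all 3 genes the SCAT7 gapmer's replicate 1 in solvent was above its replicate 2, as for the 9 class I genes.

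MR1 and SUSD6 kept another order of groups than the 9 genes. MR1 had 17.7 and 17.0 FPKM with the SCAT7 gapmer in solvent, against 8.14 and 8.40 with the control gapmer in solvent, and 14.5 and 14.6 in untransfected A549/cDDP in solvent, against 2.19 and 2.15 in A549 in solvent. SUSD6 had 20.7 and 20.7 FPKM with the SCAT7 gapmer in solvent, against 10.3 and 10.97 with the control gapmer in solvent. Both were higher with the SCAT7 gapmer than with the control gapmer in solvent, by 1.03 and 0.93 on the log2 scale (limma adjusted p = 5.8e-09 and 1.84e-07).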
